A study of Saccharomyces cerevisiae with 9 samples.

Results

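The comparison asked what a plasmid copy of CTH1 does to the mRNAs of iron-starved yeast cells that have no other source of Cth1 or Cth2. It took the 3 arrays titled as CTH1 arrays and the 3 arrays titled as vector arrays, which are 6 of the 9 arrays of the series. The CTH1 group was a Saccharomyces cerevisiae strain deleted for both CTH1 and CTH2 that carried the plasmid pRS416 with a CTH1 insert. A CTH2 group, the same strain with CTH2 on that plasmid, was used to share the estimate of the spread and to be set beside the CTH1 group. The vector group was the same deleted strain with pRS416 alone. All cultures grew in synthetic medium without uracil, which holds selection for the plasmid, with 100 µM of the iron chelator bathophenanthroline disulfonate (BPS) for about 6 hours at 30 °C until growth was exponential. No group had wild-type CTH1 and CTH2, and none was grown without the chelator. The promoter that drives CTH1 on the plasmid is not stated in the labels, which also do not say whether the 3 replicates were separate transformants. What the p-values measure is thus the spread among these cultures, part of which may be technical.

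Cth1 and Cth2 are RNA-binding proteins of the tristetraprolin family. Each has a pair of zinc fingers of the tandem CCCH type that bind AU-rich elements in the 3′ untranslated regions of mRNAs and hasten the decay of those mRNAs. In iron-starved yeast they are known for lowering mRNAs of proteins that consume iron, such as respiratory chain subunits and enzymes with iron-sulfur clusters or heme, while the transcription factors Aft1 and Aft2 raise iron uptake genes and CTH2. Messenger RNA was read on Affymetrix Yeast Genome S98 arrays, 1 array per culture, as MAS5 signals, a linear brightness per probe set that the authors had scaled to 1 target per array. Total RNA of a culture is a bulk sample, so fewer cells that express a gene and less of its mRNA per cell cannot be told apart.

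The introduced gene followed its label on every array. CTH1 had signals of 231, 592 and 288 in the CTH1 arrays, 1.54, 3.20 and 14.3 in the CTH2 arrays and 0.583, 0.854 and 1.21 in the vector arrays. All 3 CTH1 arrays were above all other arrays, and the 6 others lay under the floor of 43.2 that was set for low signals. Against that floor the mean of the CTH1 arrays was at least 7.87-fold higher than that of the vector arrays (log2 difference of at least 2.98, limma adjusted p = 0.00315). A two-sided exact permutation test of the 3 CTH1 against the 3 vector arrays gave p = 0.1, the smallest such a design allows. CTH1 entered the test only through the arrays that carry it, with a mean of 126 over all 9 arrays against a filter of 124. All vector arrays sat on the floor, so the test saw no spread among them. The call ended with no filter on dim genes (adjusted p = 0.0957) and with the floor at the 25th percentile (adjusted p = 0.154), so the p is given as the value of the fit and the signals themselves as the check of the label. CTH2, listed as TIS11, had signals of 6.79, 10.2 and 1.81 in the CTH1 arrays and 0.878, 5.90 and 5.56 in the vector arrays, so both groups sat under the floor. URA3, the marker of the plasmid, had 2960, 4140 and 3260 in the CTH1 arrays and 4080, 3530 and 4240 in the vector arrays. The plasmid marker thus overlapped between the groups. The a-specific genes STE2 and BAR1, a receptor and a secreted protease of MATa cells, had signals of 302 to 585 on these 6 arrays. The a-factor genes had 175 to 1350 for the brighter MFA1 probe set and 243 to 2050 for MFA2. The alpha-specific STE3 and both alpha-factor genes had 41.2 to 127. Other markers overlapped: the a-specific STE6 had 96.9 to 226 and AGA2 80.9 to 204, and the alpha-specific SAG1 had 100 to 146.

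CTH1 replicate 3 stood apart in its short mRNAs. The median deviation from the vector mean of the 385 tested genes of 400 coding nucleotides or fewer was -0.62 on the log2 scale in CTH1 replicate 3. It was 0.00 and 0.11 in CTH1 replicates 1 and 2 and between -0.02 and 0.02 in the vector arrays. Over the tested genes CTH1 replicate 3 correlated at 0.949 with replicate 1. CTH1 replicate 2 correlated at 0.934 with replicate 1 and at 0.900 with replicate 3, so replicate 2 had the lower correlations in its group. Pairs of vector arrays correlated at 0.948 to 0.961, and CTH1 with vector arrays at 0.907 to 0.972. Ribosomal RNA controls varied between CTH1 arrays too: an 18S rRNA probe set had 2160, 460 and 1910 in the CTH1 arrays, against 454, 723 and 993 in the vector arrays. A 25S rRNA probe set had 6590, 2450 and 884 in the CTH1 arrays, against 3350, 4650 and 3460 in the vector arrays. Both probe sets overlapped between the groups, and their part in any result was not tested. For RNA integrity, the ratio of the 3′ to the 5′ probe set of ACT1 was 1.30, 0.907 and 1.28 in the CTH1 arrays and 1.23, 1.17 and 1.64 in the vector arrays. The same ratio for SPT15 varied more, from 3.00 to 3.43 in the CTH1 arrays and from 1.04 to 4.70 in the vector arrays, and overlapped between the groups. Because of the short mRNAs the genes described below and the list medians were also computed without CTH1 replicate 3.

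**Figure D1:**
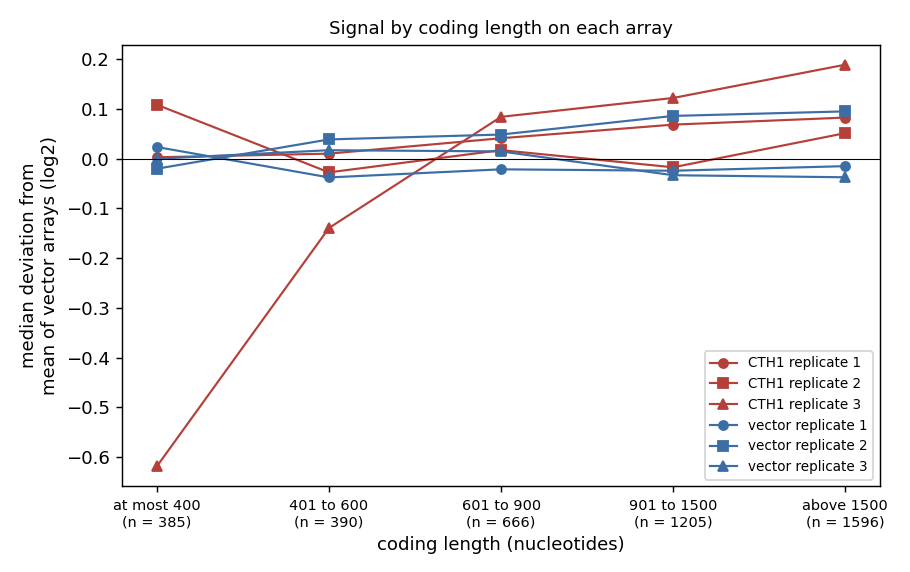
Median deviation of each array from the mean of the vector arrays (log2) by class of coding length in nucleotides, with the number of tested genes per class; red lines are CTH1 arrays and blue lines vector arrays. CTH1 replicate 3 sits at -0.62 for genes of at most 400 nucleotides and above the other 5 arrays for genes above 1500.

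CTH1 was the only gene of 4242 that passed the test over all genes between the CTH1 and vector arrays (0.0236% called, limma with Benjamini-Hochberg adjustment at 0.05). No mRNA other than that of the introduced gene rose or fell at this threshold with all arrays. At an unadjusted p under 0.05 there were 291 genes (6.86%), 134 on the lower side (3.16%) and 157 on the higher side (3.7%). In the fit without CTH1 replicate 3 CTH1 was again the single call, with 184 genes on the lower side (4.34%) and 104 on the higher side (2.45%) at an unadjusted p under 0.05. The median difference over all tested genes was 0.05, and 42% of genes had a difference below 0. The median SE was 0.25. The median 95% interval, not adjusted for the number of genes, reached 0.54 to either side of a difference. The adjusted threshold asked for more than that: MRPL33 at -1.33 and SDH2 at -1.23 did not pass (limma adjusted p = 0.276 and 0.385). In simulated data with the same spreads and 200 changed genes, a log2 change of 1 was called for 52.5% of genes, and a change of 0.5 for 4.9%. The adjusted threshold is stricter where fewer genes change, so these shares do not carry over to a comparison with 1 call. The CTH1 minus vector differences given below for other genes are therefore measurements that did not pass over all genes with all arrays, read against these background shares.

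**Figure D2:**
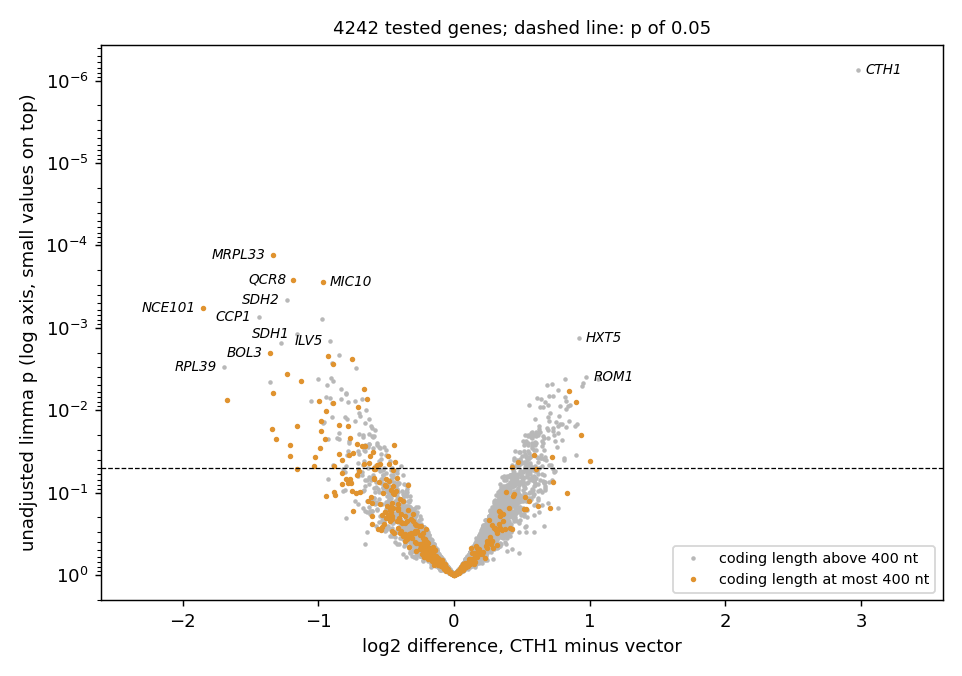
Log2 difference between the CTH1 and vector arrays (horizontal axis) and unadjusted limma p (vertical log axis, small values on top) of the 4242 tested genes; orange points are genes no longer than 400 coding nucleotides and the dashed line marks 0.05. CTH1 stands alone at 2.98, and MRPL33 at -1.33, QCR8 at -1.18 and MIC10 at -0.97 come next on the lower side.

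The catalytic subunits of succinate dehydrogenase had lower values on every CTH1 array than on any vector array. SDH2, the iron-sulfur subunit of this TCA cycle and respiratory enzyme, had signals of 812, 639 and 709 in the CTH1 arrays, against 1177, 1903 and 2132 in the vector arrays. Even the highest CTH1 array was well under the lowest vector array, with a difference of -1.23 on the log2 scale (SE 0.26, adjusted p = 0.385) and -1.23 without CTH1 replicate 3. SDH1, the flavoprotein subunit, had 283, 237 and 208 in the CTH1 arrays, against 365, 727 and 584 in the vector arrays. Its groups did not overlap either, which over all genes held for 3.56% on the lower side and 6.65% on the higher side, and the difference was -1.16 on the log2 scale (SE 0.28, adjusted p = 0.535), or -1.05 without CTH1 replicate 3. SDH4, a membrane anchor, had 1036, 1393 and 1074 in the CTH1 arrays, against 2311, 2294 and 1149 in the vector arrays. Vector replicate 3 lay within the range of the CTH1 arrays, and the difference was -0.66 (SE 0.27, and -0.60 without CTH1 replicate 3). The other anchor, SDH3, had -0.59 (SE 0.32), and the assembly factors SDH5, SDH6, SDH7 and SDH8 had values from -0.36 to 0.03. In all, 3 of 8 genes of the group had an unadjusted p under 0.05 on the lower side (3.16% of all genes) and 0 on the higher side (3.7%). The group's median was -0.48 beside a median of 0.05 over all genes. Without CTH1 replicate 3 the count was again 3, with SDH3 (-0.85) in the place of SDH4, and the median -0.41. With coding lengths of 801 and 1923 nucleotides, SDH2 and SDH1 lie outside the class of short mRNAs.

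In the cytochrome bc1 complex, which passes electrons from ubiquinol to cytochrome c, 11 of 13 genes had values below 0, against 42% of all genes. Of these genes 3 had an unadjusted p under 0.05 on the lower side (3.16% of all genes) and 0 on the higher side (3.7%). QCR8, a small subunit, had 1165, 775 and 796 in the CTH1 arrays, against 1584, 2370 and 2242 in the vector arrays. The groups were apart, with a difference of -1.18 on the log2 scale (SE 0.23, adjusted p = 0.298) and -1.10 without CTH1 replicate 3, but a second, dimmer probe set for QCR8 gave 0.03. QCR7, another small subunit, had 2873, 1869 and 2045 in the CTH1 arrays, against 3487, 3716 and 4070 in the vector arrays. All CTH1 arrays were below all vector arrays, by -0.75 (SE 0.20, and -0.69 without CTH1 replicate 3). QCR8 and QCR7 are short, with coding lengths of 285 and 384 nucleotides. CYT1, the heme-carrying cytochrome c1, had 353, 189.8 and 309.8 in the CTH1 arrays, against 442, 379.9 and 427 in the vector arrays. These groups did not overlap, although 1 CTH1 array came close to the vector arrays, and the difference was -0.60 (SE 0.24, and -0.68 without CTH1 replicate 3). The core protein QCR2 (-0.71) and the Rieske iron-sulfur protein RIP1 (-0.39) had values below 0 without a p under 0.05, and the chaperone BCS1 had 0.41. The group's median was -0.35, and -0.23 with QCR2 (-0.89) as an added gene on the lower side, without CTH1 replicate 3.

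Cytochrome c oxidase, the last complex of the chain, had 8 of 9 nuclear-encoded subunit genes below 0, against 42% of all genes. It had 2 with an unadjusted p under 0.05, both lower, against 3.16% lower over all genes. COX9, a small subunit with a coding length of 180 nucleotides, had 1373, 1036 and 479 in the CTH1 arrays, against 1680, 1881 and 2255 in the vector arrays. The lowest value came from CTH1 replicate 3, and the difference of -1.13 (SE 0.33) was -0.69 without that array. COX5A, the subunit isoform used with oxygen, had 582, 585 and 423 in the CTH1 arrays, against 693, 890.2 and 758 in the vector arrays. Its groups were apart by -0.57 (SE 0.22), and by -0.41 with an unadjusted limma p of 0.118 without CTH1 replicate 3. COX5B, the low-oxygen isoform, was the subunit gene with a value above 0 (0.30, SE 0.22, and 0.43 without CTH1 replicate 3). The subunits' median was -0.34 with all arrays and -0.30 without CTH1 replicate 3, where 1 gene stayed under 0.05. Of the 19 assembly factors 2 were lower and 1 was higher at an unadjusted p under 0.05 with a median of -0.01, and 0 without CTH1 replicate 3 with a median of -0.06. Of these COX17, a small copper chaperone, had 175, 188 and 53.6 in the CTH1 arrays, against 204, 359.7 and 264 in the vector arrays. Its value on CTH1 replicate 3 was far under the rest, and the difference was -1.15 with that array and -0.57 without it. PET54, needed to translate and splice mitochondrial COX3 and COX1 messages, had a value of 0.91 on the higher side with overlapping arrays, and 0.70 without CTH1 replicate 3. PET100, an assembly chaperone, had -0.55 and -0.35 without that array.

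Cytochrome c and the peroxidase that oxidises it had lower values on all CTH1 arrays. CCP1, the mitochondrial cytochrome c peroxidase and a heme enzyme, had 262, 255 and 379.7 in the CTH1 arrays, against 453, 1192 and 934 in the vector arrays. The vector arrays spread more than the CTH1 arrays but lay above all of them, with a difference of -1.44 on the log2 scale (SE 0.32, adjusted p = 0.411) and -1.62 without CTH1 replicate 3. In the fit without vector replicate 1 CCP1 passed over all genes (-1.85, adjusted p = 0.0447). CYC1, the main cytochrome c, had 383, 213 and 255 in the CTH1 arrays, against 556, 449.6 and 573 in the vector arrays. The groups did not overlap, with a difference of -0.93 (SE 0.24) and -0.87 without CTH1 replicate 3. CYC1 is short, with a coding length of 330 nucleotides. NDI1, the internal NADH dehydrogenase, had 348, 414 and 310.2 in the CTH1 arrays, against 340.4, 634 and 698 in the vector arrays. Here vector replicate 1 fell inside the CTH1 range, and the difference was -0.59 (SE 0.27, and -0.49 without CTH1 replicate 3). GUT2, the glycerol-3-phosphate dehydrogenase of the inner membrane, had 291, 442 and 427 in the CTH1 arrays, against 317, 198 and 184 in the vector arrays. It stood on the higher side with overlapping arrays (0.75, SE 0.26, and 0.67 without CTH1 replicate 3). Of 7 tested genes in this group 3 were lower and 1 was higher at an unadjusted p under 0.05, against 3.16% and 3.7% of all genes. The median was -0.50, or -0.35 without CTH1 replicate 3.

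**Figure D3:**
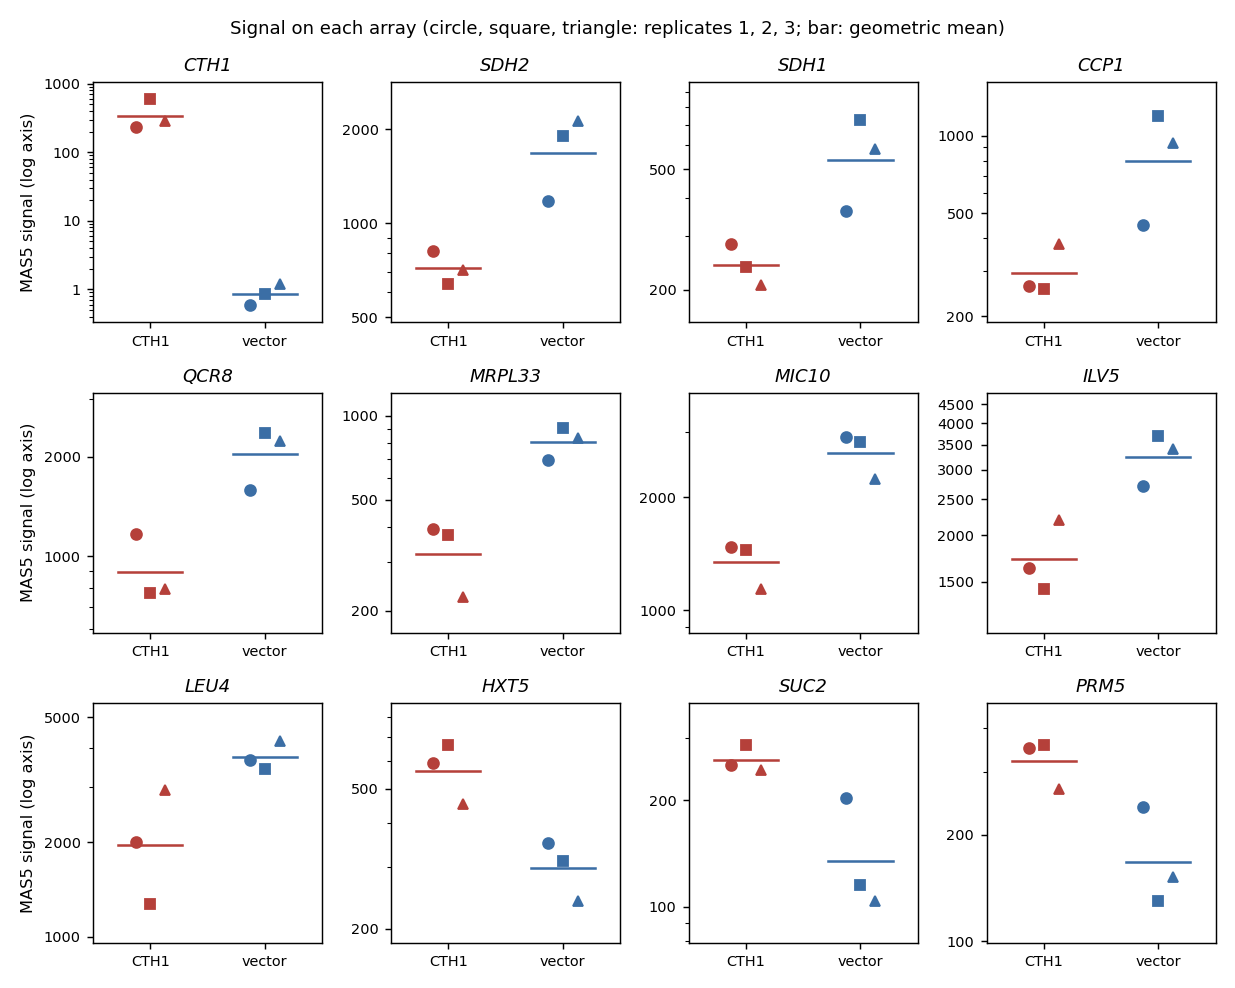
MAS5 signal (log axis) of 12 genes on the 3 CTH1 arrays (red) and the 3 vector arrays (blue); circles, squares and triangles are replicates 1, 2 and 3 and bars geometric means. CTH1 is seen in its own arrays only. The other 11 genes were picked among those with small p in this comparison, which favours groups without overlap, and all 11 show it. Over all genes this held for 3.56% on the lower and 6.65% on the higher side.

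In ATP synthase, which uses no iron, 14 of 21 genes had values below 0, against 42% of all genes. Both genes with an unadjusted p under 0.05 were short. ATP15, the epsilon subunit with a coding length of 189 nucleotides, had 1395, 759.8 and 222 in the CTH1 arrays, against 1706, 2081 and 2149 in the vector arrays. The value of CTH1 replicate 3 was the lowest by far, and the difference of -1.67 was -0.94 without it. INH1, the inhibitor of the enzyme's ATP hydrolysis, had -0.60 and -0.36 without that array. Of 21 genes 2 were lower and 0 higher at an unadjusted p under 0.05, against 3.16% and 3.7% of all genes. The median of -0.13 was -0.07 without CTH1 replicate 3. In this list 10 of the 21 genes are no longer than 400 coding nucleotides.

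In the TCA cycle outside succinate dehydrogenase, ACO1 was the single gene of 13 with an unadjusted p under 0.05. ACO1, the iron-sulfur enzyme aconitase, had 3693, 4860 and 4738 in the CTH1 arrays, against 6384, 10370 and 5155 in the vector arrays. The CTH1 arrays were all below the vector arrays, with a difference of -0.67 (SE 0.25) and -0.72 without CTH1 replicate 3. Other genes of the cycle ranged from -0.41 for the isocitrate dehydrogenase subunit IDH1 to 0.29 for KGD2 of the ketoglutarate dehydrogenase, and the median was 0.03. Pyruvate dehydrogenase, glycine cleavage and lipoate genes had a median of 0.07 over 9 genes, with the iron-sulfur lipoate synthase LIP5 at -0.55 and the glycine decarboxylase subunit GCV1 at 0.48. The 11 genes of coenzyme Q synthesis had a median of 0.16 and 0 genes with an unadjusted p under 0.05.

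Heme synthesis had lower values at its first and last steps and a higher value at the second. HEM1, the aminolevulinate synthase that starts the pathway, had 761, 475 and 704 in the CTH1 arrays, against 978, 1097 and 875 in the vector arrays. The groups were apart by -0.63 (SE 0.22, and -0.70 without CTH1 replicate 3). HEM15, the ferrochelatase that inserts iron, had 563, 565 and 677 in the CTH1 arrays, against 705, 1071 and 813 in the vector arrays. Its CTH1 arrays too lay below the vector arrays, with a difference of -0.50 (SE 0.21, and -0.59 without CTH1 replicate 3). HEM2, the second enzyme, had 0.44 (SE 0.20, and 0.47 without CTH1 replicate 3), with all CTH1 arrays above the vector arrays. Of 7 genes 2 were lower and 1 was higher at an unadjusted p under 0.05 (3.16% and 3.7% of all genes), with a median of -0.41. Without CTH1 replicate 3 the count was 3 lower and 0 higher with a median of -0.31, where the added gene was HEM13, the oxygen-dependent coproporphyrinogen oxidase (-1.02, against -0.62 with all arrays).

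Iron-sulfur assembly in mitochondria gave 2 of 15 genes with an unadjusted p under 0.05, both lower, around a median of 0.04 that was -0.04 without CTH1 replicate 3. BOL3, a late factor that helps to pass clusters to client enzymes, had 443, 172 and 236 in the CTH1 arrays, against 596, 485 and 1048 in the vector arrays. These groups did not overlap, and the difference was -1.36 (SE 0.35), or -1.28 without CTH1 replicate 3. BOL3 is short, with a coding length of 357 nucleotides. NFU1, which works with Bol3, had 185, 243 and 246 in the CTH1 arrays, against 273, 514 and 459 in the vector arrays. The CTH1 arrays were again below the vector arrays, with a difference of -0.85 (SE 0.31) and -0.92 without CTH1 replicate 3. The scaffold ISU1 (-0.26), its copy ISU2 (0.14) and the desulfurase NFS1 (0.08) had smaller values. In the cytosolic machinery 2 of 8 genes were on the higher side, NBP35 (0.59) and MET18 (0.61), but other probe sets for MET18 gave values from -0.52 to 0.00.

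The iron uptake regulon showed 0 of 25 genes with an unadjusted p under 0.05 in either direction, and its median was -0.03. FET3, the multicopper oxidase of high-affinity uptake, had 14280, 12230 and 11010 in the CTH1 arrays, against 12040, 14560 and 11710 in the vector arrays. The groups overlapped, with a difference of -0.03 and a 95% interval of -0.45 to 0.39. Its permease partner FTR1 had 0.04 (95% interval -0.37 to 0.45), the cell wall mannoprotein FIT1 had -0.09 (-0.65 to 0.48) and the siderophore transporter ARN1 had 0.23 (-0.20 to 0.66). The widest difference of the group, -0.82 in the short copper chaperone gene ATX1, was -0.25 without CTH1 replicate 3. Without that array 1 gene, the vacuolar zinc and cobalt transporter COT1, had an unadjusted p under 0.05 (-0.83). Regulators of iron use had a median of 0.03 over 9 genes with 0 under 0.05. They include the activator AFT1 (0.14) and the vacuolar iron importer CCC1 (-0.48, SE 0.26). Ribonucleotide reductase, the iron enzyme that makes deoxynucleotides, and its regulators likewise had 0 of 9 genes under 0.05 and a median of -0.06. RNR2, the iron-holding small subunit, had -0.37 (95% interval -0.83 to 0.09), and WTM1, which anchors the small subunits in the nucleus, had -0.45 (-0.93 to 0.03).

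In branched-chain amino acid synthesis ILV5, LEU4 and ILV3, all long mRNAs, had lower values on every CTH1 array. ILV5, the acetohydroxyacid reductoisomerase of branched-chain synthesis and of mitochondrial DNA stability, had 1628, 1433 and 2193 in the CTH1 arrays, against 2713, 3688 and 3399 in the vector arrays. The highest CTH1 array stayed under the lowest vector array, with a difference of -0.91 on the log2 scale (SE 0.22, adjusted p = 0.535) and -1.09 without CTH1 replicate 3. LEU4, the isopropylmalate synthase that starts leucine synthesis, had 1997, 1269 and 2944 in the CTH1 arrays, against 3643, 3427 and 4188 in the vector arrays. CTH1 replicate 3 was the nearest to the vector arrays, so the difference of -0.94 (SE 0.27) was -1.23 without it. ILV3, an iron-sulfur dihydroxyacid dehydratase, had 2568, 1617 and 2438 in the CTH1 arrays, against 3758, 3289 and 3723 in the vector arrays. The groups did not overlap, and the difference was -0.73 (SE 0.23, and -0.81 without CTH1 replicate 3). The iron-sulfur enzyme LEU1 had -0.35 (SE 0.28). Of 11 genes 3 were lower and 0 higher at an unadjusted p under 0.05, against 3.16% and 3.7% of all genes. Their median was -0.12, and -0.36 without CTH1 replicate 3. In glutamate and lysine synthesis GLT1, the iron-sulfur glutamate synthase, had 471, 672 and 498 in the CTH1 arrays, against 865, 1025 and 750.2 in the vector arrays. It was lower on every CTH1 array, by -0.69 (SE 0.24, and -0.63 without CTH1 replicate 3). LYS4, the iron-sulfur homoaconitase, had -0.78, while the next enzyme of the lysine pathway, LYS12, had 0.49. The list's median was 0.03, with 2 of 13 genes lower and 1 higher at an unadjusted p under 0.05, and -0.21 without CTH1 replicate 3.

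**Figure D4:**
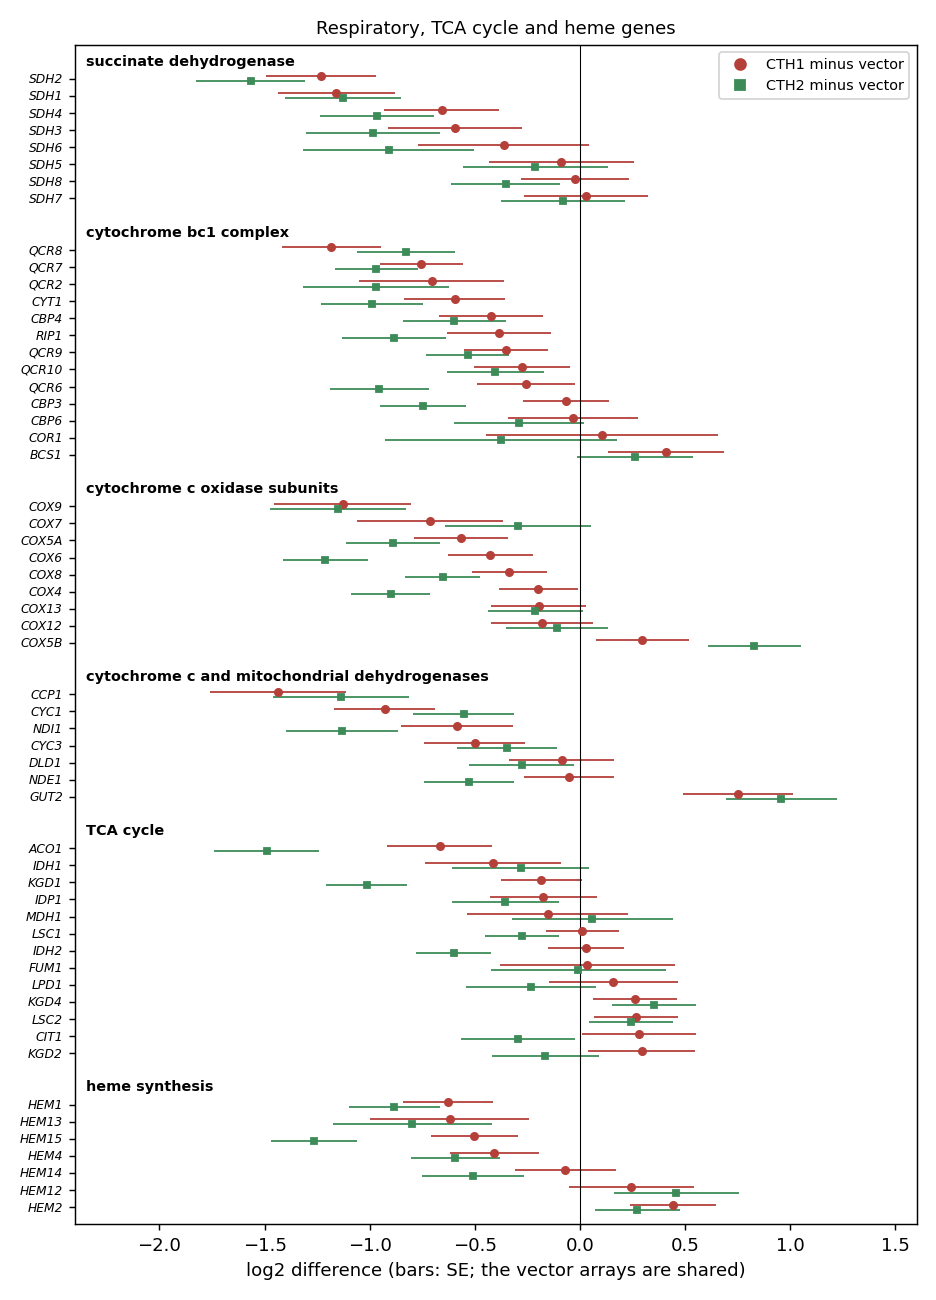
Log2 differences from the vector arrays in the CTH1 arrays (red circles) and the CTH2 arrays (green squares) for genes of 6 lists, with SE bars; both comparisons use the same vector arrays. SDH2 lies at -1.23 with CTH1 and -1.57 with CTH2, and ACO1 at -0.67 with CTH1 and -1.49 with CTH2.

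Mitochondrial proteins that hold no iron were also among the genes with the smallest p. MRPL33, a protein of the large mitochondrial ribosomal subunit, had 393, 374 and 223 in the CTH1 arrays, against 694, 905 and 835 in the vector arrays. MRPL33 is short, with a coding length of 261 nucleotides, and was lowest on CTH1 replicate 3. It had the smallest p after CTH1 itself, with a difference of -1.33 on the log2 scale (SE 0.24, adjusted p = 0.276) and -1.07 without CTH1 replicate 3. Among 71 mitochondrial ribosome genes 6 were lower and 0 higher at an unadjusted p under 0.05, against 3.16% and 3.7% of all genes. The median was -0.11, or -0.10 with 7 lower without CTH1 replicate 3. MRPL49, of the large subunit, had 233, 186 and 257 in the CTH1 arrays, against 279, 434 and 523 in the vector arrays. The groups were apart by -0.84 (SE 0.25, and -0.94 without CTH1 replicate 3). NAM9, of the small subunit, had 169.8, 121 and 343 in the CTH1 arrays, against 368, 374 and 374 in the vector arrays. CTH1 replicate 3 nearly reached the vector arrays there, so the difference of -0.96 was -1.38 without it. MIC10, which bends the inner membrane at crista junctions, had 1476, 1451 and 1142 in the CTH1 arrays, against 2909, 2805 and 2244 in the vector arrays. Its coding length is 294 nucleotides. The CTH1 arrays were well below the vector arrays, with a difference of -0.97 on the log2 scale (SE 0.19, adjusted p = 0.298) and -0.85 without CTH1 replicate 3, and a dimmer probe set gave -1.40. MIC10's brighter probe set carries a suffix that marks shared probes, and when such probe sets were left out the dimmer one passed over all genes (adjusted p = 0.0351).

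Import and inner membrane genes as a list had 5 of 43 lower and 0 higher at an unadjusted p under 0.05, against 3.16% and 3.7% of all genes. Their median of -0.14 was -0.03 without CTH1 replicate 3. HSP10, the co-chaperonin of the matrix, had 2835, 1013 and 1490 in the CTH1 arrays, against 2778, 3285 and 3357 in the vector arrays. CTH1 replicate 1 lay within the vector range, so these groups overlapped (-0.95, SE 0.31, and -0.88 without CTH1 replicate 3). HSP10 is short, with a coding length of 321 nucleotides. TOM6, a small part of the outer membrane import pore with a coding length of 186 nucleotides, had -0.98, or -0.46 without CTH1 replicate 3. IMP2, a peptidase subunit of the inner membrane, had -0.61 and -0.70 without that array. TOM6 thus came nearer to 0 without CTH1 replicate 3, and IMP2 did not.

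Cytosolic ribosomal protein genes had small values below 0 on balance. Of 80 genes 64 were below 0, against 42% of all genes, and 10 were lower and 1 higher at an unadjusted p under 0.05. The list's median of -0.19 was -0.09 without CTH1 replicate 3, with 56 genes below 0. RPL39, which encodes a very small protein of the large subunit, had 1142, 1531 and 364 in the CTH1 arrays, against 2008, 2690 and 3979 in the vector arrays. CTH1 replicate 3 was the lowest, and the difference of -1.69 (SE 0.46) was -1.07 without it. The length used for RPL39 is its gene span of 542 nucleotides, which includes any intron, so it was not counted as short. RPS29A and RPS29B, near-identical copies whose probe sets cannot be assigned to 1 gene, had -1.33 and -0.89. Ribosome biogenesis genes had a median of -0.05 over 82 genes, with 1 lower and 0 higher, PWP1 (-0.65, SE 0.21, and -0.77 without CTH1 replicate 3). Without CTH1 replicate 3 that list had 8 lower and a median of -0.11. On the higher side both lists were thus under the background share. Purine synthesis and the proteasome had medians of 0.10 and 0.11, and of the 34 proteasome genes PRE5, a core subunit, had an unadjusted p under 0.05 (-0.61).

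On the higher side HXT5 had the smallest p after CTH1. HXT5, a glucose transporter of slow-growing cells, had 591, 666 and 451 in the CTH1 arrays, against 351, 312 and 239.7 in the vector arrays. Each CTH1 array was above each vector array, with a difference of 0.92 on the log2 scale (SE 0.22, adjusted p = 0.535) and 1.08 without CTH1 replicate 3. HXT6 and HXT7 encode near-identical high-affinity glucose transporters whose probe sets share sequence, and had 0.74 and 0.64. HXT6 had 1302, 2273 and 1327 in the CTH1 arrays, against 1184, 998 and 718 in the vector arrays. The groups were apart, though by a small gap (0.74, SE 0.28, and 0.86 without CTH1 replicate 3). Of 12 tested genes for hexose transport and glucose sensing, 3 were higher and 0 lower at an unadjusted p under 0.05, against 3.7% and 3.16% of all genes. The median was 0.21, or 0.30 without CTH1 replicate 3. The transporters HXT1 (-0.11) and HXT2 (-0.15) had values below 0.

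Other carbohydrate genes with higher values were invertase, hexokinase and a glycogen synthase. SUC2, which encodes invertase, had 253, 287 and 243 in the CTH1 arrays, against 203, 115 and 104 in the vector arrays. All CTH1 arrays were above the vector arrays (0.95, SE 0.28, and 1.00 without CTH1 replicate 3), but the probe set shares probes with related genes. GSY1, a glycogen synthase, had 172, 197 and 240.2 in the CTH1 arrays, against 137, 134 and 81.1 in the vector arrays. Its groups did not overlap, with a difference of 0.82 (SE 0.25, and 0.69 without CTH1 replicate 3). HXK1, a hexokinase, had 2982, 4092 and 3005 in the CTH1 arrays, against 2423, 2084 and 2114 in the vector arrays. These arrays too were apart, by 0.59 (SE 0.20, and 0.67 without CTH1 replicate 3). The lists around them had medians of 0.01 for glycogen and trehalose, with 1 of 15 higher, and 0.11 for glycolysis and fermentation, with 1 of 30 higher. The glyoxylate cycle and gluconeogenesis had a median of 0.14 with 0 of 12 under 0.05, and peroxisomal fatty acid oxidation had -0.09 with 1 of 9 lower, the thioesterase TES1 (-0.66).

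**Figure D5:**
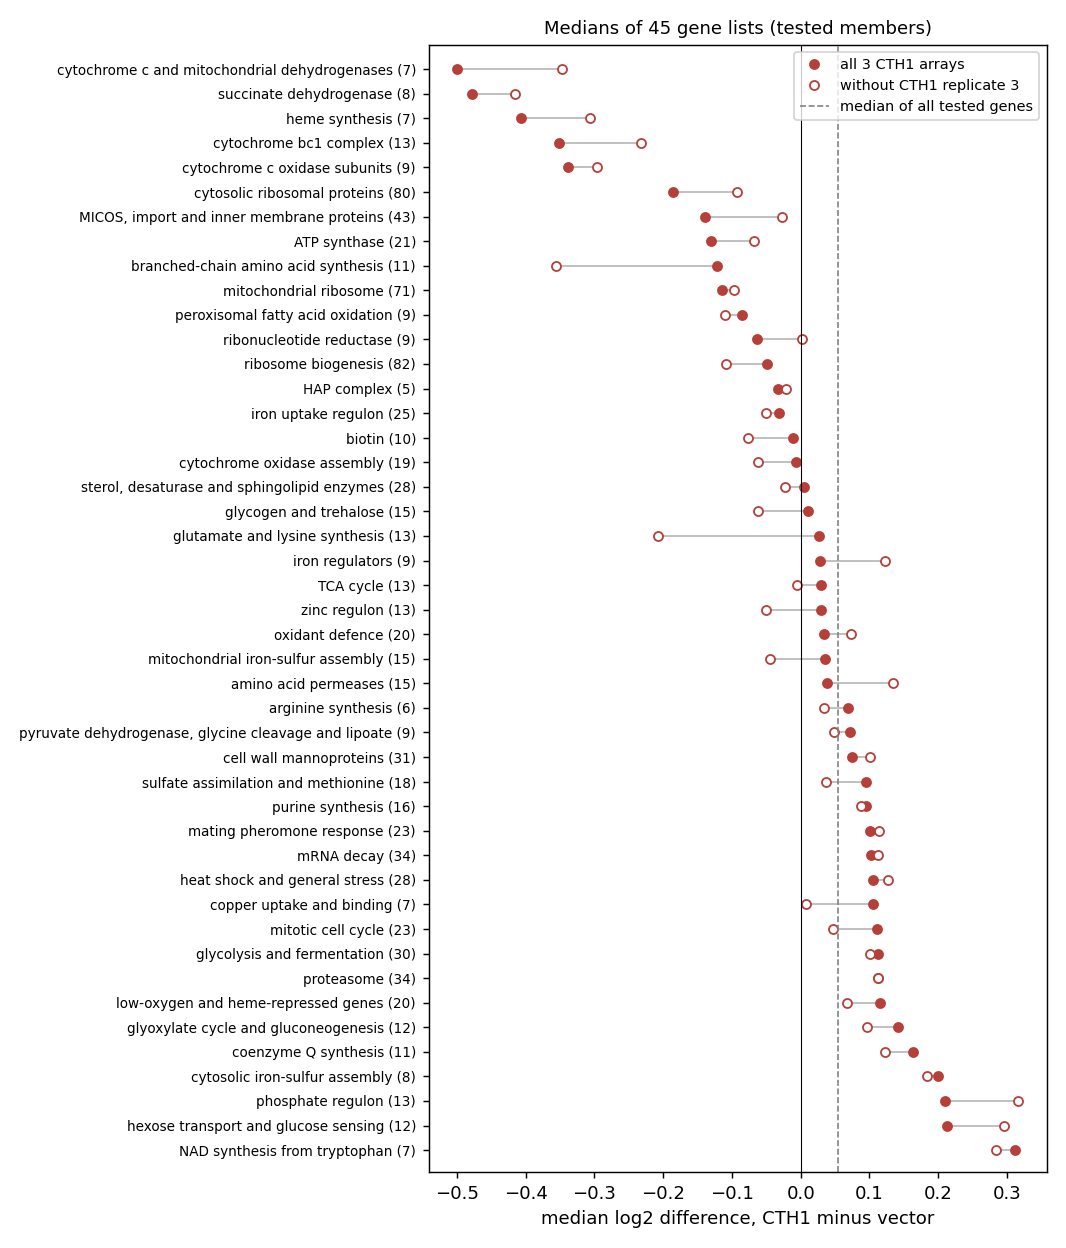
Median log2 difference between the CTH1 and vector arrays over the tested members of each of 45 gene lists, whose number is in parentheses; filled points use all arrays, open points leave out CTH1 replicate 3 and the dashed line is the median of all tested genes. The lowest medians are those of cytochrome c with dehydrogenases, succinate dehydrogenase, heme synthesis, the bc1 complex and cytochrome c oxidase, from -0.50 to -0.34.

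NAD synthesis from tryptophan had the highest list median, 0.31 over 7 genes with 1 higher and 0 lower at an unadjusted p under 0.05. BNA6, the quinolinate phosphoribosyltransferase that ends that pathway, had 1815, 2594 and 2214 in the CTH1 arrays, against 1836, 1379 and 641 in the vector arrays. The vector arrays spread widely and 1 overlapped the CTH1 arrays, with a difference of 0.89 (SE 0.32, and 0.89 without CTH1 replicate 3). In the cell wall list 3 of 31 genes were higher and 1 was lower. HPF1, a cell wall mannoprotein, had 2807, 2047 and 2177 in the CTH1 arrays, against 1389, 1847 and 1298 in the vector arrays. The groups did not overlap, with a difference of 0.64 (SE 0.21, and 0.68 without CTH1 replicate 3). PRM5, a membrane protein induced by pheromone and cell wall stress, had 349.8, 357 and 269 in the CTH1 arrays, against 239.8, 130.3 and 151 in the vector arrays. It too lay wholly above the vector arrays (0.94, SE 0.28, and 1.07 without CTH1 replicate 3). FLO10, a flocculin on the lower side (-0.94), had 7 probe sets whose values ran from -0.94 to 0.47. ROM1, the exchange factor that activates the cell wall integrity GTPase Rho1, had 179, 255 and 254 in the CTH1 arrays, against 124, 117 and 105 in the vector arrays. Here as well all CTH1 arrays were above the vector arrays, by 0.98 (SE 0.28, and 0.89 without CTH1 replicate 3). SLN1, the osmosensing histidine kinase, had 708, 764 and 722 in the CTH1 arrays, against 538, 464 and 377 in the vector arrays. Its values were close among the CTH1 arrays and spread more among the vector arrays. The groups did not overlap, with a difference of 0.68 (SE 0.20, and 0.69 without CTH1 replicate 3).

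Further genes by smallest p lay outside the lists. NCE101, a short gene with a part in the secretion of proteins without a signal sequence, had 218, 88.4 and 62.0 in the CTH1 arrays, against 389, 293 and 494 in the vector arrays. All CTH1 arrays were below the vector arrays, the lowest being CTH1 replicate 3, with a difference of -1.85 on the log2 scale (SE 0.40, adjusted p = 0.41) and -1.47 without that array. It passed over all genes when CTH1 replicate 1 was left out (-2.37, adjusted p = 0.0249). IRC21 had 229, 286 and 361 in the CTH1 arrays, against 485, 644 and 575 in the vector arrays. The groups were apart by -0.98 with all arrays and by -1.14 without CTH1 replicate 3. TRP1, an enzyme of tryptophan synthesis, had 595, 421 and 792 in the CTH1 arrays, against 1015, 1020 and 1242 in the vector arrays. It was lower on all CTH1 arrays, by -0.90 (SE 0.24, and -1.12 without CTH1 replicate 3). SDD2 had -0.85 (SE 0.22) and NFT1, a transporter-like gene read by 6 probe sets with values from -1.48 to -0.05, had -1.28. On the higher side MPO1, a dioxygenase of phytosphingosine breakdown, had 287, 317 and 335 in the CTH1 arrays, against 143, 192 and 202 in the vector arrays. Each CTH1 array was above each vector array (0.82, SE 0.23, and 0.77 without CTH1 replicate 3). ROG1, a lipase, had 1.06 (SE 0.30), CAB2, an enzyme of coenzyme A synthesis, had 0.72, and HIS5, of histidine synthesis, had 0.73. Also on that side were YSC83 (0.77), MRS1 (0.70), a mitochondrial splicing factor, and STS1 (0.61), which places proteasomes at the nucleus. Of the 15 genes with the smallest p on the lower side 7 are no longer than 400 coding nucleotides, and of the 15 on the higher side 1 is. Of the 134 genes on the lower side at an unadjusted p under 0.05, 50 belong to this class of 385 genes. The share was 12.99% of the class, against 3.16% of all genes. On the higher side it was 2.08%, against 3.7%. Without CTH1 replicate 3 the class had 24 genes on the lower side (6.23%), against 4.34% of all genes.

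Leaving out CTH1 replicate 3 brought other genes to the front. DTD1, which removes D-amino acids from tRNA, had 520.1, 529 and 1318 in the CTH1 arrays, against 1347, 1263 and 1903 in the vector arrays. CTH1 replicate 3 overlapped the vector arrays, and the difference was -1.05 with all arrays and -1.50 without CTH1 replicate 3. A dimmer probe set of DTD1 gave -0.38. YMR315W had 1306, 909 and 1841 in the CTH1 arrays, against 2061, 2735 and 2540 in the vector arrays. Here CTH1 replicate 3 was the nearest of the CTH1 arrays to the vector arrays, and the difference of -0.90 was -1.16 without it. FMP42, a protein found in mitochondria, had -0.83 and -1.12 without that array. DTD1, YMR315W and FMP42 were nearest to the vector arrays on CTH1 replicate 3, which a choice of genes without that array favours. MRPL33, also in this set, was farthest from the vector arrays on CTH1 replicate 3. On the higher side IGD1, an inhibitor of glycogen debranching, had 0.76 and 0.90, YHK8 had 0.81 and 1.13, and YDR248C had 0.78 and 0.89 on the same terms. Of the 30 genes with the smallest p with all arrays and the 20 without CTH1 replicate 3, 11 were in both sets, CTH1 included. The 100 genes named by rule besides CTH1 were 54 on the lower and 46 on the higher side, and 44 and 33 of them had an unadjusted p under 0.05 without CTH1 replicate 3. All 100 had the same sign in both fits, which the rule that chose them favours.

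Stress and oxidant lists had medians of 0.11 for heat shock and general stress, with 3 of 28 higher, and 0.03 for oxidant defence, with 1 of 20 lower. Over all genes 3.7% were higher and 3.16% lower. GRE3, an aldose reductase of the first list, had 662, 998 and 827 in the CTH1 arrays, against 602, 462 and 499.7 in the vector arrays. The arrays of the groups did not overlap (0.66, SE 0.21, and 0.65 without CTH1 replicate 3). Low-oxygen and heme-repressed genes had 0.12, with the mannoprotein TIR3 (0.57) the 1 of 20 under 0.05. The 5 genes HAP1 to HAP5, listed together as activators of respiratory genes, had -0.03, with HAP2 (0.53) under 0.05. The zinc, copper and phosphate lists had medians of 0.03, 0.11 and 0.21, each with 1 gene under 0.05 on the higher side. Those genes were ZRG8 (0.69), the copper sensor MAC1 (0.48) and the phosphate sensor PHO81 (0.44). Sulfate assimilation had 0.09, arginine synthesis 0.07, amino acid permeases 0.04, biotin genes -0.01 and sterol, desaturase and sphingolipid enzymes 0.00, each with at most 1 gene under 0.05. The mRNA decay factors had 0.10 over 34 genes, with PAN2 (0.57) and CAF130 (0.54) higher and LSM2 (-0.73) lower at an unadjusted p under 0.05. The mitotic cell cycle had 0.11, with the cyclin CLB1 (0.54) the gene of the list under 0.05.

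The mating pheromone response had genes on both sides, 2 of 23 lower and 3 higher at an unadjusted p under 0.05, with a median of 0.10. MFA1, which encodes the a-factor pheromone and has a coding length of 111 nucleotides, had 622, 759.5 and 175 in the CTH1 arrays, against 852, 1347 and 1100 in the vector arrays. Its value on CTH1 replicate 3 was the lowest by far, and the difference of -1.31 was -0.65 without that array. PRM7, a pheromone-regulated gene with a coding length of 2097 nucleotides, had 336, 394 and 254 in the CTH1 arrays, against 641, 729 and 380.4 in the vector arrays. CTH1 replicate 2 overlapped with vector replicate 3, and the difference was -0.80 (SE 0.27, and -0.63 without CTH1 replicate 3). STE12, the transcription factor of the response, had 186, 198 and 231 in the CTH1 arrays, against 148, 141 and 125 in the vector arrays. All CTH1 arrays were above all vector arrays, by 0.57 (SE 0.21, and 0.48 without CTH1 replicate 3). The other genes on the higher side were PRM5, described above, and BAR1 (0.52, and 0.51 without CTH1 replicate 3). Without CTH1 replicate 3 the list had 0 lower and 1 higher, PRM5, and a median of 0.11.

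The CTH2 arrays, grown alike, allow the effects of both plasmids to be set side by side, with the vector arrays shared by both comparisons. Between the CTH2 and vector arrays 13 of 4242 genes passed over all genes (0.306%), among them TIS11 itself. SDH2 differed from vector by -1.23 with CTH1 and -1.57 with CTH2 (adjusted p = 0.0275 for CTH2), and the direct difference between the CTH1 and CTH2 arrays was 0.33 (95% interval -0.23 to 0.90, adjusted p = 0.882). SDH1 had -1.16 with CTH1 and -1.13 with CTH2, and CCP1 had -1.44 with CTH1 and -1.14 with CTH2. The direct difference was -0.03 (95% interval -0.63 to 0.57) for SDH1 and -0.30 (SE 0.32) for CCP1. For these 3 genes the test did not separate the plasmids, and these errors do not show that they act alike. ACO1 had -0.67 with CTH1 and -1.49 with CTH2 (adjusted p = 0.0275 for CTH2), a direct difference of 0.82 (SE 0.25, adjusted p = 0.43). HEM15 had -0.50 with CTH1 and -1.27 with CTH2 (adjusted p = 0.0275 for CTH2), a direct difference of 0.76 (SE 0.21, adjusted p = 0.358). FIT1 had -0.09 with CTH1 and -1.42 with CTH2 (adjusted p = 0.0403 for CTH2), a direct difference of 1.34 (SE 0.26, adjusted p = 0.126). None of these 3 differences passed over all genes, where 2 genes did, CTH1 and TIS11 themselves (0.0471%). SDH2, ACO1, HEM15 and FIT1 thus passed against vector with CTH2 and not with CTH1, without a direct difference that passed. Without CTH1 replicate 3 the direct comparison called 5 genes, with PTC6, PGM2 and GPH1 added, and with array weights it called 27.

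MIC10 stood the other way round. MIC10 had 1476, 1451 and 1142 in the CTH1 arrays and 2908, 2643 and 2413 in the CTH2 arrays. All CTH1 arrays were below all CTH2 arrays, as for 6.2% of all genes, with a direct difference of -0.97 (SE 0.19, adjusted p = 0.126), while CTH2 differed from vector by 0.01. MIC10 is short, with a coding length of 294 nucleotides. For genes of at most 400 nucleotides the median deviation from the vector mean was -0.62 on CTH1 replicate 3 and 0.20 on CTH2 replicate 3. The part of length in the direct difference was not tested. CTH1 replicates 1 and 2, at 1476 and 1451, also lay below the lowest CTH2 array. SDD2 had 372, 594 and 507 in the CTH1 arrays and 1028, 999 and 1190 in the CTH2 arrays. These arrays did not overlap either (-1.15, adjusted p = 0.126). HXT6 had 1302, 2273 and 1327 in the CTH1 arrays and 3626, 2566 and 4034 in the CTH2 arrays. The CTH1 arrays were all below the CTH2 arrays, with a direct difference of -1.09 that did not pass over all genes (SE 0.28, adjusted p = 0.298), while CTH2 differed from vector by 1.82 (adjusted p = 0.0238). MIC10, SDD2 and HXT6 were among the 27 genes called between the plasmids with array weights, and no other alternative called any of them. By list, medians of the direct difference were 0.32 for succinate dehydrogenase, 0.26 for the bc1 complex, 0.25 for iron uptake and -0.30 for glycogen and trehalose, beside 0.00 over all genes. The iron uptake list had 7 of 25 genes higher with CTH1 than with CTH2 at an unadjusted p under 0.05 and 0 lower, where 3.75% of all genes were higher and 3.98% lower.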

How the data were processed

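The 9 arrays, 3 per plasmid, were grouped by the sample titles. The deposited values are linear MAS5 intensity values, credited to MAS5 by the submitters' processing notes without a version. The deposited values show that the authors scaled every array to a trimmed mean of 500.4 to 500.6. Such values have no read depth, so precision rests on the number of arrays.

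Of 9335 probe sets, 6504 had 1 gene in the platform annotation, 328 several, 2443 none and 60 were controls. All 6504 matched the RefSeq annotation of assembly R64 by gene number and covered 5656 genes. A gene with several probe sets (315 genes) was read by the brightest. Signals were floored at the 10th percentile (43.2) and log2-transformed, and 4242 genes with a mean signal above the 25th percentile of gene means (124) were tested. Coding lengths are annotated gene spans, multiples of 3 for 97% of 4134 protein-coding genes, and include any intron. The test was limma 3.58.1 in R 4.3.3 (lmFit, eBayes with a trend) over the 9 arrays, with Benjamini-Hochberg adjustment over all tested genes and calls at 0.05. It was tested on simulated data with 200 changed genes.

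Genes were named by a rule: the 15 each way with the smallest p, the 10 each way without CTH1 replicate 3, and up to 4 members of each list with an unadjusted p under 0.05. Others were chosen by their role in a list. The comparison and the 45 gene lists were chosen with earlier results of these data known. Alternatives left out each array or changed the fit, scaling, floor, filter, probe-set rule, coding-length correction or replicate block.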

Additional observations from a re-analysis of the deposited data

Results flagged for a closer look

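CTH1 itself differed between the plasmid groups beyond the vector comparison: its log2 difference between the CTH1 and CTH2 arrays was 2.98 (limma adjusted p = 0.00157), with all 3 CTH1 arrays above all 3 CTH2 arrays. It is the gene carried on the plasmid, and the value is a lower bound because every CTH2 and vector array lay under the floor. CTH1 was bright enough to be tested only through the CTH1 arrays, and the floored CTH2 arrays had no spread, so the p adds nothing to the signals.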

How the results depend on the processing

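With 24 alternatives the call of CTH1 held in 21. It ended with the floor at the 25th percentile (0 called higher, adjusted p = 0.154, at least 3.46-fold) and with no filter on dim genes (0 called higher, adjusted p = 0.0957), and CTH1 was not tested when only genes above the 50th percentile were kept (0 called higher). The fold bound with 1 CTH1 array left out was 5.97 to 9.56. On the lower side, where no gene was called with all arrays, leaving out single arrays gave 0 to 1 calls, NCE101 without CTH1 replicate 1 and CCP1 without vector replicate 1. Leaving out probe sets with a suffix gave 1, MIC10. Genes at an unadjusted p under 0.05 numbered 62 to 239 on the higher side when 1 array was left out (62 without vector replicate 3 and 239 without vector replicate 1), and 77 to 226 on the lower side (77 and 80 without vector replicates 3 and 2 and 226 without vector replicate 1). The higher count was 72 with the replicate block and coding-length correction together, 266 with no filter and 89 above the 50th percentile. Scaling each array to a common median made it 116 higher and 167 lower, and quantile normalization 117 higher and 158 lower, against 157 and 134. Between the CTH1 and CTH2 arrays the named genes called were 0 with the 25th-percentile floor and above the 50th percentile, and 4 with array weights, in each case beside 1 otherwise. Over all genes that comparison called 2 genes with all arrays, 5 without CTH1 replicate 3, 27 with array weights and 1 to 3 in the other alternatives.

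The replicate block left CTH1 as the 1 call (adjusted p = 0.0126) and 228 genes under an unadjusted 0.05. Deviations of same-numbered CTH1 and vector arrays correlated at -0.12, 0.22 and -0.04. These values do not decide whether arrays of the same number were handled together, which the titles do not state. No direction reversed in 2366 recomputed gene values; of 1080 recomputed list medians 63 moved by more than 1 SD between arrays, and the cause was not tested. Of 45 list medians 7 had the other sign without CTH1 replicate 3, with 22 below 0 instead of 17, and 23 had the other sign in at least 1 alternative. Those 23 medians were at most 0.141 in size with all arrays, and mitochondrial iron-sulfur assembly had the other sign most often, in 11 of 24 alternatives.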

Other observations

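The 2771 probe sets with no gene or several genes in the platform annotation entered no comparison above. Of these 863 were bright enough to test between the CTH1 and vector arrays, and limma called 0 (smallest adjusted p = 0.636), with 56 at an unadjusted p under 0.05 (6.49%).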
